A study of Homo sapiens with 3 samples.

Results

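Long noncoding RNAs (lncRNAs) of 10 genes were followed in human embryonic stem cells, 5 of them known for their use in pluripotent cells (ESRG, LINC-ROR, LNCPRESS1, TUNAR and LINC00678) and 5 known from most cell types (MALAT1, NEAT1, NORAD, OIP5-AS1 and TUG1). They were taken by name from the 58051 genes with a row in the counts, and all 10 were present. The choice was made with earlier results of these data known, so it was not blind to their levels. The counts come from total RNA of H9, an established human embryonic stem cell line, wild type and untreated, grown in Essential 8 Flex medium on Vitronectin. All 3 samples are replicates of this single condition, with RNA isolated side by side and libraries made after removal of ribosomal RNA. The study used these libraries to set gene expression beside replication initiation and DNA breaks. With a single condition no difference can be tested, and errors are the SD over replicates. The labels do not say whether the replicates were separate cultures. Cells were not sorted, and in bulk RNA fewer cells that use a gene cannot be told apart from less RNA per cell.

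A lncRNA is a transcript longer than most small RNAs that acts as RNA, or by being transcribed, without an established long reading frame. Pluripotent cells make a set of lncRNAs that most differentiated cells lack, and their levels fall as the cells leave the pluripotent state. The broadly expressed lncRNAs include RNAs that stay in the nucleus, such as MALAT1 in nuclear speckles and NEAT1 in paraspeckles, and RNAs that bind proteins or microRNAs in the cytoplasm, such as NORAD.

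Replicates 1, 2 and 3 held 10390984, 12024802 and 8655155 gene-assigned reads. Levels are given as TPM, the reads of a gene per base of exon, scaled to the same sum in each replicate, so that genes of unequal length can be compared. The label of the cells was checked against markers. Summed over POU5F1, SOX2, NANOG and LIN28A, which mark pluripotent cells, the level was between 4022 and 4067 TPM. The sums were between 3.67 and 5.69 TPM for the neural markers PAX6 and SOX1, between 2.32 and 2.78 TPM for the mesoderm markers TBXT and MESP1, and between 7.61 and 11.8 TPM for the endoderm markers SOX17 and FOXA2. None of these lineage markers was at 0 in any replicate, but MESP1 had only 1, 5 and 1 counts and did not pass the floor given below. The part of the lineage markers in the levels of the 10 genes was not tested.

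Reads of repeated sequence can fit several places, and the way the counting treated them is not known. Of the 50-base words of the longest transcript, 5.60% in ESRG, 4.54% in LINC00678 and 1.45% in LINC-ROR had an exact second copy elsewhere in the genome. These shares were at most 0.692% in the other 7 genes.

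The counts below describe genes that were chosen with such results in view. All 10 genes passed a floor of more than 3 counts in each of the replicates, 3 being what an observed 0 allows for, and 24.3% of lncRNA genes did. Of the 10 genes, 8 were in the upper 10% of lncRNA genes by mean TPM, which began at 7.05 TPM, and by construction 10% of lncRNA genes are. The exceptions were LINC-ROR and, at its full length, NEAT1, which is in the upper 10% if the length of its short isoform is used (22.0 TPM). The median of the 10 means was 116 TPM, and that of lncRNA genes above the floor was 4.99 TPM. Means spanned a 491-fold range, and 5 genes were above 100 TPM. Together the 10 genes took 0.354%, 0.379% and 0.423% of counted reads in replicates 1, 2 and 3, a mean of 0.385 ± 0.0351% (SD, n = 3), and 10.9 ± 0.633% of the reads on lncRNA genes.

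**Figure D1:**
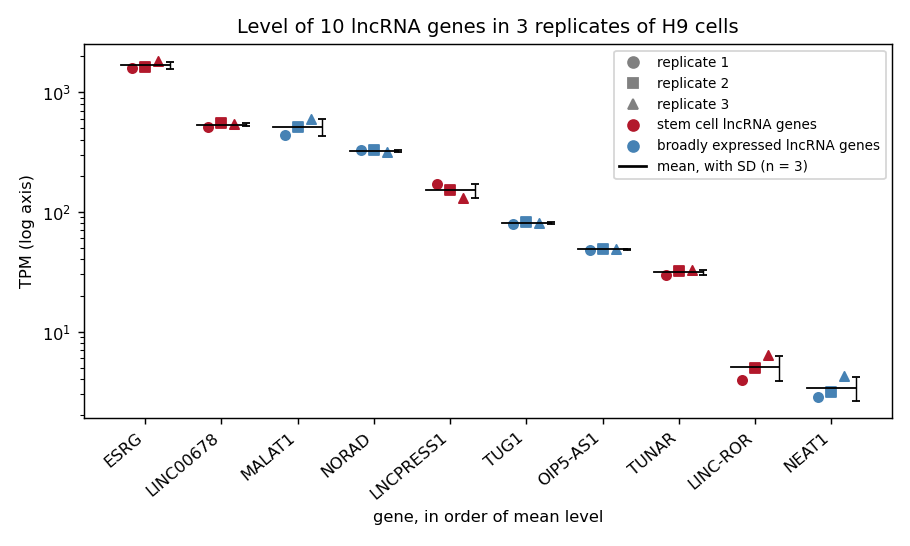
TPM on a log axis for each of the 10 lncRNA genes, ordered by mean. Symbols are the 3 replicates, the horizontal line is the mean and the bar its SD. ESRG stands at the top at 1673 TPM, and LINC-ROR and NEAT1 stand apart at the bottom at 5.08 and 3.41 TPM.

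In descending order of mean TPM the genes were ESRG, LINC00678, MALAT1, NORAD, LNCPRESS1, TUG1, OIP5-AS1, TUNAR, LINC-ROR and NEAT1. Neighbors in this order were called separated where every replicate gave the same order and the means differed by more than the larger SD. This held for 8 of the 9 neighboring pairs. LINC00678 and MALAT1 did not differ beyond their spread, since their means differed by 23.0 TPM and MALAT1 was the higher in replicate 3. The widest step was from TUNAR to LINC-ROR, a ratio of 6.18 between the means.

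**Figure D2:**
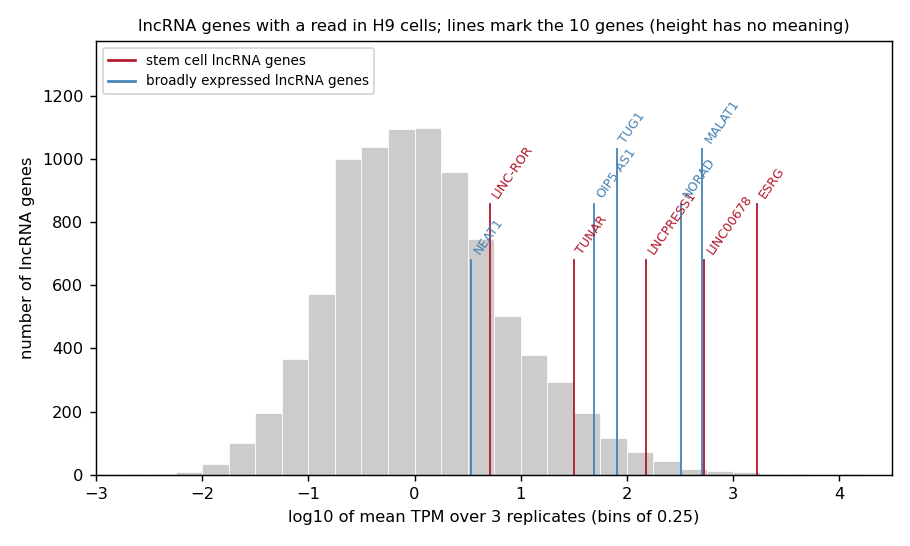
Number of lncRNA genes (y axis) by log10 of mean TPM over the 3 replicates (x axis, bins of 0.25), for the 8858 lncRNA genes with a read in any replicate. Colored lines mark the means of the 10 genes, and NEAT1 and LINC-ROR are the lines closest to the bulk of the distribution.

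Among the stem cell lncRNAs, ESRG was by far the most abundant. ESRG (ENSG00000265992, chr3:54632122-54639857, minus strand) has 4 exons of 3140 bases in all and lies within the span of CACNA2D3, on the opposite strand, without sharing exon bases with it. Its RNA is used as a marker of undifferentiated cells. It had 12975, 15320 and 12674 counts, which gave 1587, 1612 and 1819 TPM and a mean of 1673 ± 127 TPM (SD, n = 3). Replicates 1 and 2 lay close together and replicate 3 was the highest. ESRG ranked 4 among 14159 lncRNA genes and 51 among all matched genes. Each of the 3 lncRNA genes above it has between 69.6% and 100% of its exon length opposite the exons of another gene. Among the 10123 lncRNA genes that share less than 10% of their exon length with another gene, none was above ESRG, and the next below was ERVH-1 at 820 ± 65.3 TPM (SD, n = 3). CACNA2D3 had 59, 85 and 52 counts, 0.478% of the ESRG reads.

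LINC00678 (ENSG00000254934, chr11:27617626-27634627, minus strand, 1165 exon bases) was the second stem cell lncRNA by level. It had 1563, 1941 and 1400 counts, or 515, 551 and 541 TPM. The 3 replicates were close, with a mean of 536 ± 18.3 TPM (SD, n = 3). Its 17002-base span lies within that of BDNF-AS, a lncRNA gene on the opposite strand with 15, 36 and 20 counts, with which it shares no exon bases. Among lncRNA genes with little shared exon length, the one directly above LINC00678 was ENSG00000282024 at 647 ± 57.6 TPM (SD, n = 3), and the one directly below was ENSG00000259048 at 338 ± 26.9 TPM (SD, n = 3).

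LNCPRESS1 (ENSG00000232301, chr7:101299558-101301346, plus strand, 887 exon bases) encodes an RNA that is repressed by p53 and binds the deacetylase SIRT6 in stem cells. It had 395, 405 and 259 counts, or 171, 151 and 132 TPM. It was the one gene of the 10 with its highest level in replicate 1 and a clearly lower one in replicate 3, and its mean was 151 ± 19.8 TPM (SD, n = 3). Its neighbors in level were SNHG29 at 179 ± 8.41 TPM and GAS5 at 150 ± 6.87 TPM (SD, n = 3), both host genes of small nucleolar RNAs. The gap to GAS5 was smaller than either SD.

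TUNAR (ENSG00000250366, chr14:95866587-95925663, plus strand, 3773 exon bases) is a lncRNA of stem and neural cells that binds RNA-binding proteins, and the annotation used here lists it as protein-coding. It had 292, 364 and 273 counts, or 29.7, 31.9 and 32.6 TPM. The mean was 31.4 ± 1.49 TPM (SD, n = 3), and the replicates overlapped within counting error. The lncRNA gene next to it on the other strand, ENSG00000258516, had 0, 1 and 0 counts.

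LINC-ROR (ENSG00000258609, chr18:57054558-57072119, minus strand, 3891 exon bases) was named for its role in the reprogramming of differentiated cells to pluripotency. It had only 40, 58 and 55 counts, or 3.95, 4.93 and 6.37 TPM, with a mean of 5.08 ± 1.22 TPM (SD, n = 3). Replicate 3 was the highest, but the exact 95% Poisson intervals of replicates 1 and 3, 2.82 to 5.38 and 4.80 to 8.29 TPM, overlapped. These intervals leave out all error but that of counting, as PCR copies of a molecule are not told apart. LINC-ROR is known as a sponge of miR-145, whose mature sequence is shown with its seed in capitals.
hsa-miR-145-5p: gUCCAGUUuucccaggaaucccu
The match to this seed, AACTGGA, was not found on either strand of the longest annotated LINC-ROR transcript of 2604 bases. It was found in the first 2604 bases of 23.9% of 2867 other lncRNA transcripts of at least that length. This says only that these letters are not in this window.

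Among the broadly expressed lncRNAs, MALAT1 had the most reads and NEAT1 the fewest. MALAT1 (ENSG00000251562, chr11:65497640-65508073, plus strand, 10434 exon bases) encodes the RNA of nuclear speckles, where splicing factors gather. It had 11827, 16092 and 13741 counts, or 435, 510 and 593 TPM, and a mean of 513 ± 79.0 TPM (SD, n = 3). The replicates were well apart from each other, and replicate 3 was the highest. TALAM1, an antisense lncRNA gene with no row in the counts, covers most of MALAT1, and 83.7% of the MALAT1 exon length lies opposite other exons. Reads of both strands cannot be told apart here, as the strand setting of the counting is not given in the sources used here. The antisense gene ENSG00000270117, inside the 5′ part of MALAT1, had 4, 7 and 6 counts, which is 0.00698 times the reads per base of MALAT1. The annotated gene is longer than the RNA that begins at the second RefSeq start and ends before the small RNA at its 3′ end. With this length of 7072 bases (chr11:65499045-65506116), chosen after seeing the data, MALAT1 had 756 ± 117 TPM (SD, n = 3).

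NEAT1 (ENSG00000245532, chr11:65422774-65445540, plus strand, 22767 exon bases), upstream of MALAT1, encodes the RNA around which paraspeckles form. It had 167, 217 and 215 counts, or 2.82, 3.15 and 4.25 TPM, and a mean of 3.41 ± 0.752 TPM (SD, n = 3). Replicate 3 was the highest, and its exact 95% Poisson interval, 3.71 to 4.86 TPM, did not overlap that of replicate 1, 2.41 to 3.28 TPM. NEAT1 has a short and a long isoform that share their start, and gene counts do not separate them. If all reads came from the short isoform of 3524 bases, a length chosen after seeing the data, the level would be 22.0 ± 4.86 TPM (SD, n = 3). Genes of paraspeckle proteins were all above NEAT1, at 371 TPM for SFPQ, 262 for NONO, 84.3 for PSPC1 and 65.6 for RBM14. In mean TPM NONO was 76.8 times as high as NEAT1 at its full length. METTL16, the gene of a protein that binds the 3′ end of MALAT1, had 44.3 ± 2.33 TPM (SD, n = 3).

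The 3′ ends of both nuclear RNAs are shown because they have a common form. Both RNAs are known to be cut before a small RNA folded like a tRNA, and their ends are held by a triple helix of U-rich stretches with an A-rich tract. The 100 bases before the annotated small RNA lie at chr11:65506017-65506116 for MALAT1 and chr11:65445441-65445540 for NEAT1, both on the plus strand. Capitals mark the motifs TTTCTTTT, TTTGCTTTT and AAAAGCAAA, the last being the reverse complement of the second, and no motif overlaps another.
MALAT1: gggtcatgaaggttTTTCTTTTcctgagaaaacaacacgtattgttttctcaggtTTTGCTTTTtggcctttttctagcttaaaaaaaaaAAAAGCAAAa
NEAT1: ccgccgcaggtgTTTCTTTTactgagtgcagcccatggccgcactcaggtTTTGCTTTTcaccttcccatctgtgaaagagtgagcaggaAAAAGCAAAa

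The 3 motifs stood in this order within 100 bases in the longest transcripts of MALAT1 and NEAT1 and in no other of 18868 lncRNA genes. The motifs were chosen after sequences were seen, so that finding them in MALAT1 and NEAT1 is no test. Alone, they were in the last 100 bases of 1.56%, 0.276% and 0.361% of 18855 lncRNA transcripts of at least that length. On the other strand of these windows, TTTCTTTT was absent and each of the other motifs was found once, as its partner. Both small RNAs, of 57 and 58 bases, had 0 counts in every replicate. A row at 0 gives no level for RNAs of this size.

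NORAD (ENSG00000260032, chr20:36045618-36051018, minus strand) is a single exon of 5401 bases, and its RNA binds Pumilio proteins such as PUM2 in the cytoplasm. It had 4597, 5326 and 3771 counts, or 327, 326 and 315 TPM. The replicates were nearly equal, with a mean of 322 ± 6.85 TPM (SD, n = 3). NORAD was at 2.60 ± 0.00888 times the TPM of PUM2 (SD, n = 3). PUM2 had 124 ± 2.68 TPM, and RBMX, another gene whose protein binds NORAD, had 281 ± 11.2 TPM (SD, n = 3).

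Pumilio proteins bind the motif TGTANATA, in which N is any base, and NORAD holds it 15 times between bases 819 and 4657. TGTATATA made up 10 of these, TGTAAATA 4 and TGTACATA 1. The other strand held the motif once. Of 383 other lncRNA transcripts of at least this length, 154 (40.2%) held it in their first 5401 bases, with a median of 0, and 2 held it 15 times or more. Among the other 9 genes, NEAT1 held it 6 times in 22743 bases, TUG1 2 times, OIP5-AS1 once and the others not at all in sense. Elements from 4 places along NORAD are shown with flanking bases, the motif in capitals, from chr20:36049803-36049832, chr20:36049702-36049731, chr20:36047971-36048000 and chr20:36046344-36046373, all on the minus strand.
Element at base 1198: cctcactactgTGTATATAgttgacaatgc
Element at base 1299: aaatcacatttTGTAAATAcctttttgtta
Element at base 3030: caaccctactgTGTATATAgcggacaaact
Element at base 4657: attagcctattTGTAAATAcctttgttata

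OIP5-AS1 (ENSG00000247556, chr15:41283958-41322392, plus strand), also called Cyrano, encodes an RNA with a long conserved site for miR-7. It had 2784, 3330 and 2418 counts, or 47.8, 49.2 and 48.7 TPM, and a mean of 48.6 ± 0.701 TPM (SD, n = 3). Its CV of 1.44% was below counting error, 1.88%, so that no spread beyond counting was detectable at this depth. The exons of its 72 annotated transcripts together span 22370 bases, and its longest transcript has 8881 bases, which gave 92.1 TPM in place of 48.6. Its exons share 759 bases with OIP5 on the opposite strand (257, 280 and 199 counts, 78.0 TPM) and 195 bases with NUSAP1 on the same strand (1324, 1607 and 1118 counts, 143 TPM). On the same strand it also shares 513 bases with ENSG00000285920, a protein-coding gene with no row in the counts. Over the union of exons, OIP5 had 1.61 times and NUSAP1 2.94 times the reads per base of OIP5-AS1, and CHP1, which lies upstream and shares no exon bases with it, had 2.57 times. These ratios depend on gene length, and with the longest transcript of each gene they were 0.638, 1.33 and 1.26.
The miR-7 site is shown because nearly all of the microRNA pairs with it. It lies at chr15:41300569-41300598, and capitals mark the seed in the microRNA and, in the gene, the bases that match it.
hsa-miR-7-5p: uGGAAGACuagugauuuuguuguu
OIP5-AS1: ttaagAACAACAAAATCACcaatGTCTTCC

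The 14 capital bases on the left pair with the 3′ part of the microRNA and the 7 on the right with its seed. The seed match GTCTTCC occurs 3 times in the longest OIP5-AS1 transcript and not on its other strand. It occurs in the first 8881 bases of 56.9% of 72 other lncRNA transcripts of at least that length.

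TUG1 (ENSG00000253352, chr22:30969245-30979395, plus strand, 10151 exon bases) encodes a broadly expressed RNA first found in the retina, and the annotation used here lists it as protein-coding. It had 2109, 2506 and 1806 counts, or 79.8, 81.6 and 80.2 TPM. Its mean of 80.5 ± 0.936 TPM (SD, n = 3) had the lowest CV of the 10, 1.16%, which is below the 2.16% that counting error alone gives. OIP5-AS1 was at 0.603 ± 0.00427 times its TPM (SD, n = 3), but at 1.12 ± 0.00792 times with the longest transcript of each gene as its length. A pair of short antisense lncRNA genes lies wholly within its exons. ENSG00000269987 had 308, 386 and 245 counts and ENSG00000269972 had 145, 156 and 97, which is 2.72 and 2.38 times the reads per base of TUG1. Which strand these reads came from is not known, and TUG1 shares 14.4% of its exon length with other genes. In level TUG1 stood between LNCPRESS2, at 83.6 ± 7.11 TPM, and ENSG00000254277, at 80.2 ± 11.2 TPM (SD, n = 3). Each gap was within the SD of the gene named.

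Summed TPM was 2396 ± 118 for the 5 stem cell lncRNAs and 968 ± 74.1 for the 5 broadly expressed ones, a ratio of 2.48 ± 0.0906 (SD, n = 3). The ratio was between 2.42 and 2.58 in the 3 replicates. A single gene weighed most on each side. ESRG held 69.7 ± 1.83% of the summed TPM of the first group and MALAT1 52.8 ± 4.12% of that of the second (SD, n = 3). Without MALAT1 the ratio was 5.27, and without ESRG, an alternative chosen after seeing the data, it was 0.751. In reads, not divided by length, the stem cell genes had 0.679 ± 0.0277 times the broadly expressed ones (SD, n = 3). ESRG and MALAT1 had nearly the same share of counted reads, 0.133 ± 0.0118% and 0.135 ± 0.0225% (SD, n = 3).

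The spread between replicates differed among the 10 genes. The CV of TPM ranged from 1.16% for TUG1 to 24.0% for LINC-ROR, with a median of 6.17%. For all lncRNA genes above the floor the median was 18.7%. These 2 medians are not at like depth, since 9 of the 10 genes had at least 100 counts in every replicate and the floor admits far lower counts. Genes within 1.2 times a gene's mean count show what its depth allows. MALAT1 had a CV of 15.4%, where 25 genes of like count had a median of 4.74% and counting error alone gives 0.849%. NEAT1 had 22.1%, where the median was 7.86%, LNCPRESS1 13.1%, where it was 6.27%, and ESRG 7.59%, where it was 4.56%. LINC-ROR had 24.0%, where the median was 13.8%. NORAD (2.13%), LINC00678 (3.41%) and TUNAR (4.76%) were below the medians of their depth, 4.47%, 4.57% and 6.57%, as were OIP5-AS1 and TUG1. For TUNAR, OIP5-AS1 and TUG1 the CV was below counting error alone.

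**Figure D3:**
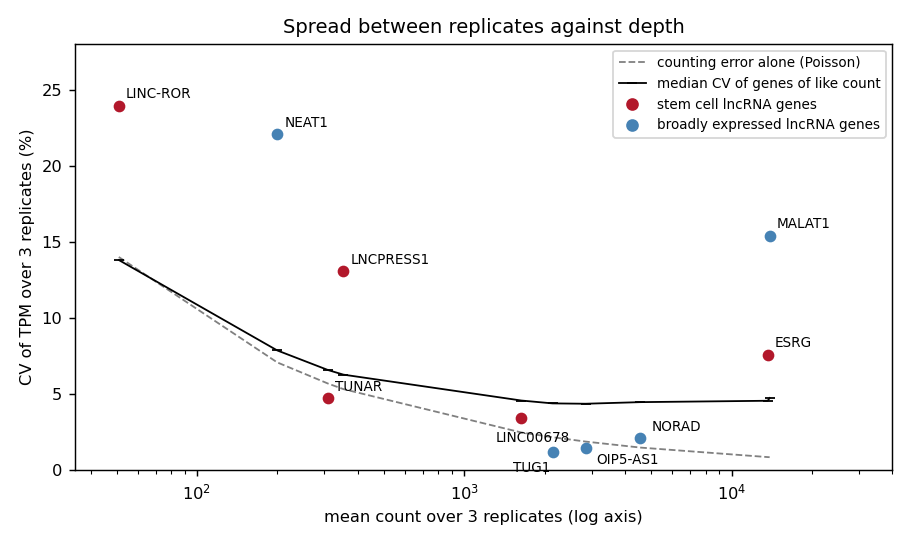
CV of TPM over the 3 replicates in percent (y axis) against the mean count (x axis, log). Points are the 10 genes, the dashed line is counting error alone and the solid line the median CV of genes of like count, both joined over the 10 depths. MALAT1, NEAT1, LNCPRESS1, LINC-ROR and ESRG lie above the solid line and the other 5 below it.

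In log2 relative to the gene's own mean, replicate 3 was the farthest library for ESRG, NEAT1, LNCPRESS1 and NORAD. For MALAT1 and LINC-ROR it was replicate 1, at -0.24 and -0.36 against 0.21 and 0.33 in replicate 3. Replicate 1 was also the farthest for LINC00678, OIP5-AS1 and TUNAR, and replicate 2 for TUG1. Replicate 3 was also set against the mean of replicates 1 and 2 by each gene's share of counted reads, not by TPM. On a log2 scale this ratio was 0.54 for NEAT1, 0.36 for MALAT1, 0.22 for ESRG and -0.26 for LNCPRESS1. It was 0.55 for LINC-ROR, which has few counts, and between -0.02 and 0.11 for the other 5 genes. Over 9946 genes with at least 100 counts, the median was 0.00, the 5th percentile -0.20 and the 95th 0.36. NEAT1, LINC-ROR and LNCPRESS1 were outside the range between these percentiles and MALAT1 was at its edge. LINC-ROR did not reach 100 counts and so was not among the 9946 genes. Among genes whose transcripts are within 2 percentage points of the GC content of MALAT1 and of NEAT1, the 95th percentile was 0.21 and 0.22. Replicate 3 also had the fewest reads in all and the largest share of mitochondrial reads, 0.832% against 0.554% and 0.665% in replicates 1 and 2. Markers of other cells also differed, with the neural sum highest in replicate 3 (5.69 TPM against 3.67 and 4.78) and the endoderm sum highest in replicate 1 (11.8 TPM against 7.61 and 8.30). Of the neural markers, SOX1 had 1.94, 3.12 and 3.86 TPM in replicates 1, 2 and 3, and PAX6 varied little, with 1.73, 1.67 and 1.83. The 8 lineage lncRNAs, among them MIAT and HOTAIR, summed to 11.3, 14.2 and 17.1 TPM in replicates 1, 2 and 3. Most of it was MIAT, at 9.69, 12.2 and 15.5 TPM. Besides MIAT, only CARMN was highest in replicate 3, at 0.569 TPM against 0.506 and 0.562. SOX2 was highest in replicate 3 (446 TPM against 367 and 378) and NANOG lowest there (249 TPM against 298 and 277). The part of these in the levels was not tested.

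**Figure D4:**
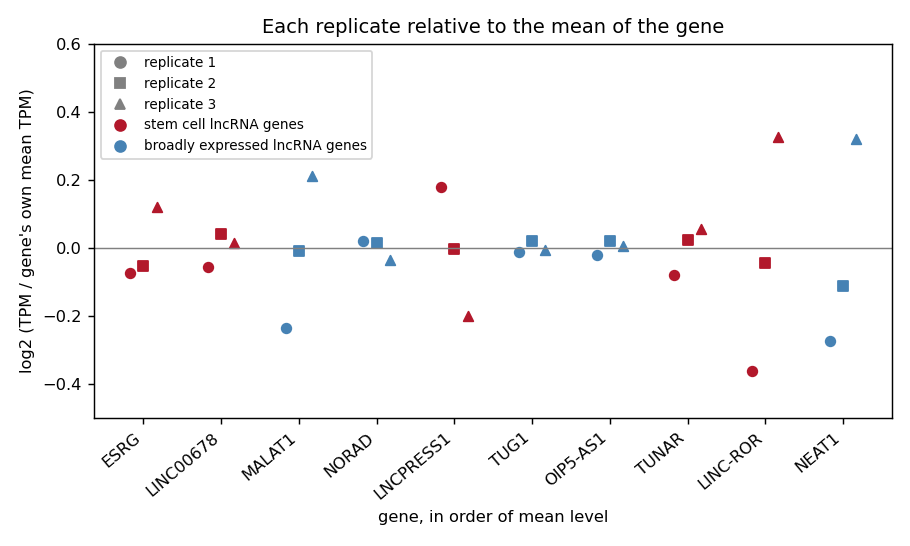
log2 of each replicate's TPM relative to the gene's own mean (y axis) for the 10 genes in order of level (x axis). Symbols are replicates. Replicate 3 (triangles) is the highest for ESRG, MALAT1, TUNAR, LINC-ROR and NEAT1 and the lowest for LNCPRESS1 and NORAD.

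Other lncRNA genes of 3 kinds were listed for comparison by name. Of 8 other lncRNAs listed for stem cells, 8 passed the floor, with a median of 18.7 TPM, and 24.3% of all lncRNA genes passed. Genes on this list, such as the small nucleolar RNA host gene GAS5, need not be particular to stem cells. The highest were MIR302CHG, the host of the microRNA cluster miR-302 of pluripotent cells, at 326 ± 53.1 TPM, and GAS5 at 150 ± 6.87 TPM (SD, n = 3). The lowest were LINC01108 at 3.79 TPM and LINC00458 at 1.47 TPM. MIR302CHG shares 71.6% of its exon length with other genes. Of 10 other broadly expressed RNAs, 7 passed, and the median of all 10 was 1.94 TPM. The highest of them were CHASERR at 14.8 ± 2.23 TPM and HCG18 at 13.1 ± 0.533 TPM (SD, n = 3). RMRP, RPPH1 and RN7SK, which most cells make in large amounts, were listed at 0 in every replicate, so that a count of 0 in these files need not mean an unused gene. Of 8 lncRNAs of differentiated lineages, 4 passed, with a median of 0.118 TPM. MIAT led them at 12.5 ± 2.92 TPM (SD, n = 3), and HOTAIR and HOTTIP of the HOX clusters were listed at 0.

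**Figure D5:**
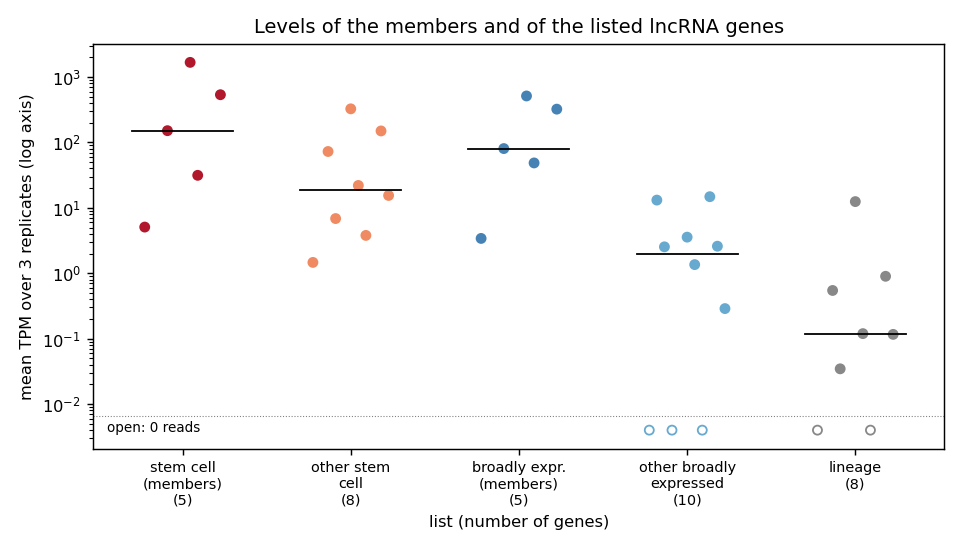
Mean TPM over the 3 replicates (y axis, log) of each gene in 5 lists (x axis, number of genes in brackets). The horizontal line is the median of the list and open circles are genes with 0 reads. The lineage list has the lowest median, 0.118 TPM, and MIAT is its highest point at 12.5 TPM.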

How the data were processed

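RNA-seq libraries of 3 replicates of H9 cells were analyzed. The authors trimmed reads with Trim Galore 0.4.4 and aligned them to GRCh38 with TopHat2 2.1.1; Cufflinks 2.2.1 is also named in the submitters' processing notes, and its values were not used. The deposited values are raw counts of reads per gene. For the counting tool, its annotation, its strand setting and the read length: not given in the sources used here. Precision at low levels is limited by depth, 8655155 to 12024802 counts per replicate.

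Identifiers were joined to GENCODE release 44 (56948 of 58051 matched, 1103 did not). TPM was computed from the counts by the union of exons, and CPM from all counts. TUNAR and TUG1, annotated as protein-coding, were added to the 14157 lncRNA genes. With 1 condition no test was made. The spread was estimated with edgeR 4.0.16 (intercept only, 15997 genes, common biological CV 0.0607). DESeq2 1.42.0 gave size factors for an alternative. Sequences were taken from the genome and GENCODE transcripts, and those of microRNAs from RefSeq (2 of 2 matched); blastn 2.17.0 found copies in the genome, with R 4.3.3 and Python 3.11.15. Copies of 50 bases were exact. Genes near members were those within 5 kb.

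The 10 genes, the other lists and the rules were chosen with earlier results of these data known. Named were the 10 genes; genes that overlap them or lie within 5 kb, where they share exons or have more reads per base; the nearest lncRNA genes in level with under 10% shared exon length; the listed genes with the highest and lowest TPM; and the markers. CACNA2D3, BDNF-AS and ENSG00000258516 and the sequence motifs were chosen after values or sequences were seen. Alternatives were another gene length, TMM and DESeq2 scaling, no mitochondrial genes, thinning to 10%, CPM, other backgrounds and floors, and leaving out each replicate. Some of the listed genes and sequences are not reported here.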

Additional observations from a re-analysis of the deposited data

How the results depend on the processing

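All 10 genes stayed above 3 counts without any one replicate, which follows from passing in every replicate. They also reached 10 counts in every replicate. Thinned to 10% of the reads, 9 stayed above 3 counts in every replicate. The number in the upper 10% of lncRNA genes was 8 with the longest transcripts, after thinning and without any one replicate. It was 9 with the short NEAT1 isoform and the shorter MALAT1 as lengths, and 7 against lncRNA genes above 3 counts and 10 against those with little shared exon length. The ratio of stem cell to broadly expressed lncRNAs was 2.48 in TPM and between 2.43 and 2.51 when a replicate was left out, but 0.679 in counts, 5.27 without MALAT1, 0.751 without ESRG and 1.95 with those shorter lengths, which follows from the lengths of the genes and from the share each of these holds. The share of reads was between 0.366% and 0.401% without a replicate and the median CV between 4.80% and 8.06%; TMM and DESeq2 factors gave a median CV of 5.41% and 4.83%. The number of separated neighbors was between 7 and 9 with the longest transcripts, after thinning, without each replicate and with the shorter lengths. It was not counted for the other alternatives, and in CPM, which is not divided by length, MALAT1 (1355) was above ESRG (1329). OIP5-AS1 passed TUG1 when the longest transcript was used as gene length, which moved 9 of the 10 levels beyond their SD, and MALAT1 passed LINC00678 without replicate 1 and with its shorter length. NEAT1 passed LINC-ROR with the short isoform and after thinning. TMM factors, DESeq2 factors and leaving out a replicate moved none of the 10 levels beyond its SD. Leaving out mitochondrial genes moved 4 of them, thinning to 10% moved 5 and CPM in place of TPM moved 8. After thinning, LINC-ROR was at 3.28 TPM in place of 5.08, and LNCPRESS1 at 126 TPM in place of 151. Thinning was a single random draw, so that these shifts include its sampling error and do not show that lower depth lowers a level. No paired analysis was possible because all replicates belong to 1 condition. Counting error was largest for LINC-ROR (14.0%) and NEAT1 (7.08%), and gene length limits every comparison of levels between genes.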
